A study of Xenopus laevis with 14 samples.

Results

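The comparison described here set all CRISPR-edited tadpole brains together against brains without an edit. The edited group held 9 libraries, 4 from *ap3b2* CRISPants and 5 from *eef1a2* CRISPants, and the control group held 5, so that it used all 14 libraries of the series. Its members were all 26807 genes of the read count table, of which 21328 were expressed highly enough to be tested. Each library was made from 6 pooled whole brains of *Xenopus laevis* at stage 47, a swimming tadpole stage. Embryos from a pair of wild-type females received Cas9 protein bound to a guide RNA against *ap3b2*, to a guide against *eef1a2*, or, for controls, to a scrambled guide without a target. The edited animals were F0 mosaics, in which cells of 1 animal carry different edits, and pooling averaged over 6 of them. Every group, controls included, was injected with Cas9. Cutting of the genome was shared by both edited groups and absent from controls, so that its effect and the loss of either target cannot be told apart in the pooled comparison. The replicates were separate pools of brains from the same pair of females, and the p-values measure the spread between these pools.

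Both targets are genes in which human variants cause developmental and epileptic encephalopathy, a group of severe childhood epilepsies. *ap3b2* encodes the neuronal beta subunit of the AP-3 adaptor complex, which sorts cargo into synaptic vesicles and lysosome-related organelles. *eef1a2* encodes the form of translation elongation factor 1 alpha that neurons and muscle use to bring aminoacyl-tRNA to the ribosome. *X. laevis* is allotetraploid, and many genes are present as a long (L) and a short (S) homeolog, which are tested as separate genes. Reads from very similar homeologs may be divided between them, so that the level of a single copy is less certain than that of the pair.

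The targeted genes were examined first. *ap3b2.S*, the homeolog against which the guide was designed, lies on chromosome 1S, 173781321 to 173927757 (v10.1). It was at 70.2, 72.1, 70.5, 71.6 and 74.8 CPM (read counts scaled to a common library size) in control replicates 1 to 5, and the edited libraries ranged from 61.9 through a median of 66.6 to 80.2 CPM. The groups overlapped and the log2 fold change was -0.06 ± 0.06 (SE; edgeR adjusted p = 0.433). With the trend of fold change with gene span removed, as described below, its log2 fold change was of opposite sign, 0.18. *eef1a2.L* ranged from 123 to 172 CPM in edited brains against 138 to 158 CPM in controls (log2 fold change -0.02 ± 0.07, edgeR adjusted p = 0.85). *eef1a2.S* ranged from 369 to 479 CPM against 372 to 444 CPM (0.04 ± 0.06, edgeR adjusted p = 0.553). An edit that alters the reading frame need not change the number of reads from a gene, and these levels do not report how many copies were edited. The other homeolog, *ap3b2.L*, was at 120.4, 121, 131, 123 and 117 CPM in controls and at 54.8, 79.8 and 114 CPM (lowest, median and highest) in edited brains, a fall of 1.48-fold without overlap (log2 fold change -0.57 ± 0.14, edgeR adjusted p = 0.00337). The estimate was -0.57 in each of the edited groups, including the one injected with the *eef1a2* guide.

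The libraries held 36563581 to 46745977 counted read pairs, with a median of 45800628 in controls and 40787274 in edited brains, and the part of this difference in depth in the results was not tested. On the first principal component of log2 CPM, which held 48.6% of the variance, all edited libraries lay on one side of all controls. The difference between the group means was 170.4 (exact permutation test, two-sided, p = 0.0004995, the smallest that 9 against 5 libraries allow). Control replicate 4 was the control nearest to the edited libraries, and *ap3b2* replicate 4 and *eef1a2* replicate 2 were the edited libraries nearest to controls. The part of these libraries in each result was checked by leaving each library out in turn. On the second component, with 15.4% of the variance, replicates 1 to 3 of every group lay above 0 and replicates 4 and 5 below it. The labels name no batch for this division, and a fit with a term for it gave 6151 higher and 5758 lower genes.

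Across the transcriptome, about as many genes rose as fell, but the rises were small and the falls were larger. At a false discovery rate below 0.05, 5608 genes were higher in edited brains (26.3% of those tested) and 5357 were lower (25.1%). Of the rises, 5583 were below 2-fold (26.2% of tested genes) and 25 exceeded it (0.117%). Of the falls, 4237 were below 2-fold and 1120 exceeded it (5.25%). These are fold estimates beyond 2 in genes called as changed. A test of whether the fold change itself exceeds 2 (glmTreat of edgeR) called none in either direction, with 444 genes at an unadjusted p under 0.05. The median rise was 1.24-fold and the median fall 1.56-fold, and the falls beyond 2-fold had a median of 2.33-fold. A rise was usually very small: 2927 of the higher genes (52.2%) changed by less than 1.25-fold, 2250 (40.1%) by 1.25 to 1.5-fold and 406 (7.24%) by 1.5 to 2-fold. The same classes held 926 (17.3%), 1463 (27.3%) and 1848 (34.5%) of the lower genes. In bulk tissue, fewer cells of a type and less RNA per cell cannot be told apart, and a rise in CPM is a rise relative to the other RNA of the same library.

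**Figure D1:**
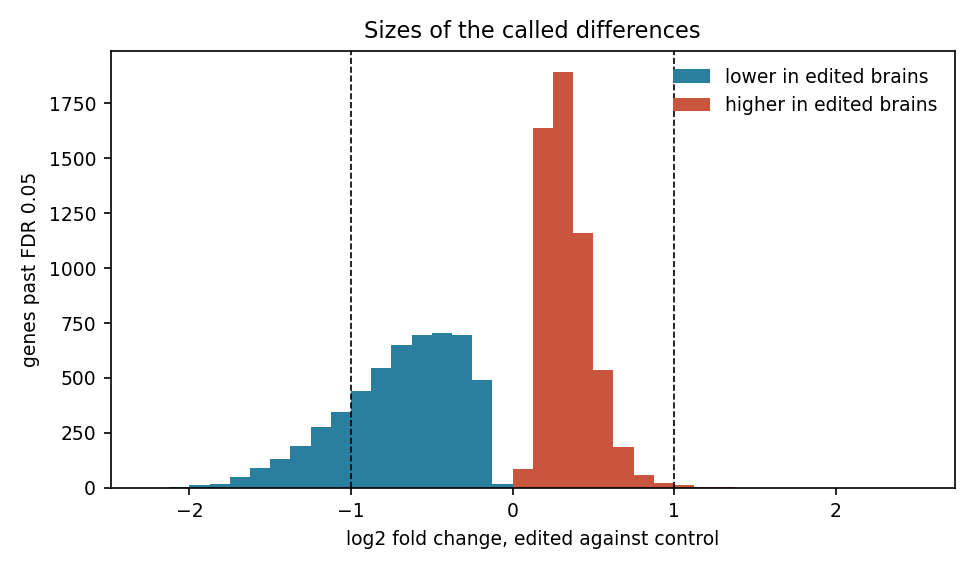
Log2 fold change (edited against control, x axis) of the genes called at a false discovery rate below 0.05, with the number of genes on the y axis. Dashed lines mark 2-fold: 25 genes lie beyond it on the higher side and 1120 on the lower side, while 5583 of the higher genes sit inside it.

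The rises below 2-fold were seen in every edited library. Each library's median log2 ratio to the control mean over these 5583 genes ran from -0.04 to 0.09 in controls and from 0.15 to 0.44 in edited brains, without overlap. Over the genes that fell, it ran from -0.18 to 0.09 in controls and from -1.12 to -0.23 in edited brains, again without overlap. These genes were chosen by the same contrast, so the separation of the group medians is a description. The spread among edited libraries was wide, and *eef1a2* replicate 3 lay farthest from controls on both measures. The higher genes made up 36.5 to 40% of all counts in controls and 41.0 to 49.4% in edited brains. The lower genes made up 15.8 to 18.9% and 9.03 to 14.95%.

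**Figure D2:**
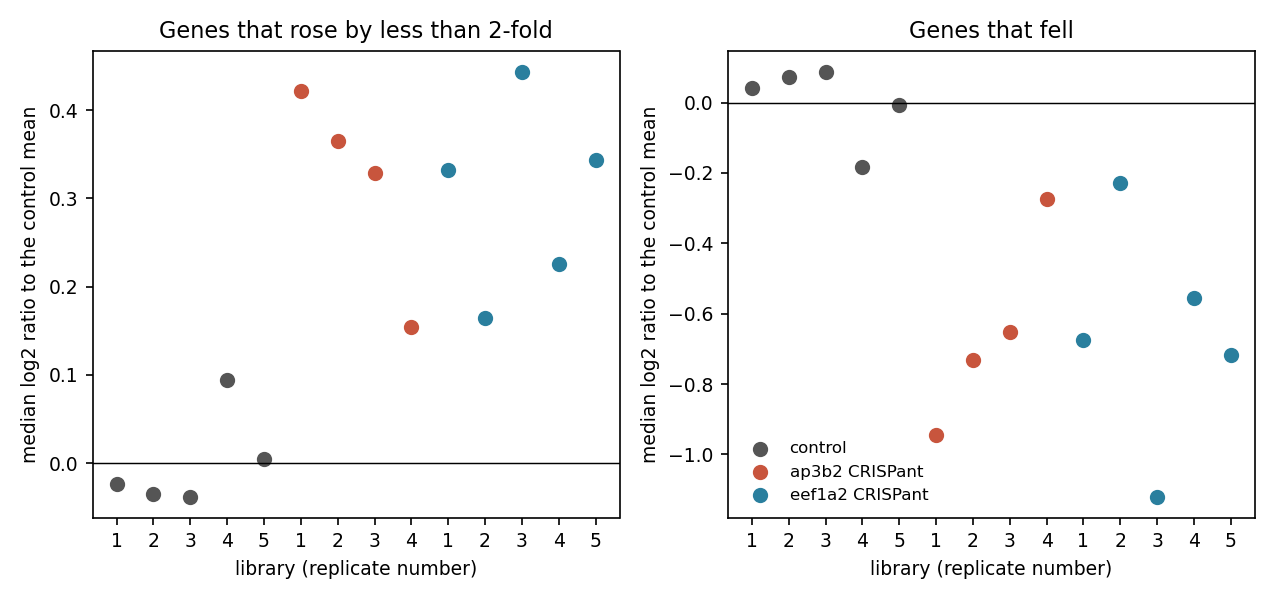
Median log2 ratio to the control mean in each library (y axis), for genes that rose by less than 2-fold (left) and genes that fell (right), by group; each point is 1 library. The edited libraries lie at 0.15 to 0.44 on the left and at -1.12 to -0.23 on the right, and control replicate 4 is the control nearest to them.

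Complete separation of the groups was less frequent than a call. Among all genes tested, 1118 had every edited library above every control (5.24%) and 1551 had every edited library below (7.27%). Of the rises below 2-fold, 1113 were without overlap, and so were 559 of the falls beyond 2-fold. Leaving out each of the 14 libraries in turn kept 3639 of the 5583 small rises in every fit (65.2%) and 1104 of the 1120 larger falls (98.6%). With libraries scaled by their totals alone, in place of the TMM factors, 3618 genes were higher and 6386 lower, and the higher share of the calls was 36.2% in place of 51.1%. The median log2 fold change of the small rises was then 0.23 in place of 0.31. Replicates 4 and 5 alone, 3 edited libraries against 2 controls, gave no gene past the threshold in edgeR, with 3553 genes at an unadjusted p under 0.05. The medians of the small rises and of the falls were 0.19 and -0.41 there, against 0.36 and -0.78 in replicates 1 to 3.

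The largest group of small rises was the protein synthesis machinery. Of 153 cytosolic ribosomal protein genes tested, 149 were higher and none lower, against 26.3% and 25.1% of all genes, and their median log2 fold change was 0.59. Ribosomal protein transcripts made up 7.18 to 8.82% of counts in controls and 8.68 to 12.53% in edited brains, overlapping only through control replicate 4. *rpl37a.S*, a protein of the large subunit, was at 219, 233, 225, 280.4 and 246 CPM in controls and at 282, 410.4 and 493.1 CPM (lowest, median and highest) in edited brains, a rise of 1.70-fold (log2 fold change 0.76 ± 0.12, edgeR adjusted p = 0.00116). *rpl31.L* (chromosome 2L, 114670378 to 114675228) rose by 1.61-fold, from 288 to 366 CPM in controls to 388 to 620 CPM. In both genes the lowest edited library was above control replicate 4, the highest control. Among initiation factors, which load the ribosome onto mRNA, 42 of 70 were higher and 1 lower, with a median of 0.21. *eif2b1.S*, a subunit of the exchange factor that recharges eIF2, was at 5.01, 3.99, 6.38, 3.88 and 5.63 CPM in controls and at 6.46, 9.5 and 10.2 CPM in edited brains, a rise of 1.77-fold (0.83 ± 0.14, edgeR adjusted p = 0.00116). Among elongation factors, 8 of 12 were higher and none lower, and the members of this list include the *eef1a2* homeologs, which did not pass the test. *eef1b2.L*, which exchanges nucleotide on elongation factor 1 alpha, rose by 1.42-fold with overlap of the groups (0.50 ± 0.09, edgeR adjusted p = 0.00117). Ribosome biogenesis factors were called higher in 42 of 114 cases and lower in 4, with a median of 0.13. With the trend of fold change with gene span removed, 27 were higher and 7 lower, a share of rises close to the background. *nop56.L*, a core protein of the small nucleolar particles that guide rRNA methylation, rose by 1.35-fold (0.44 ± 0.08, edgeR adjusted p = 0.00117). Transfer RNA synthetases were not among the rising groups, with 8 of 54 higher and 4 lower.

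Genes of the mitochondrial respiratory chain formed the next group. Of 130 subunits of oxidative phosphorylation, 95 were higher and 4 lower, with a median log2 fold change of 0.32. *cox6b1.S*, a subunit of cytochrome c oxidase, was at 54.2, 56.2, 53.2, 62.1 and 54.4 CPM in controls and at 65.6, 76.0 and 85.2 CPM in edited brains, a rise of 1.37-fold (0.46 ± 0.07, edgeR adjusted p = 0.00116). No edited library fell within the control range. *ndufa3.S*, an accessory subunit of complex I, rose by 1.42-fold (0.51 ± 0.08, edgeR adjusted p = 0.00116), and *uqcr11.L* of complex III rose by 1.41-fold (0.50 ± 0.08, edgeR adjusted p = 0.00116). Mitochondrial ribosomal proteins, which translate the subunits encoded in mitochondrial DNA, were higher in 73 of 96 cases and lower in none, with a median of 0.33. Proteins that import precursors into mitochondria were higher in 21 of 34 cases and lower in 2. Of these, *tomm7.L* of the outer membrane translocase rose by 1.49-fold, from 31.6 to 35.7 CPM in controls to 37.9 to 58.4 CPM in edited brains. Other parts of energy metabolism did not share the pattern. Of 31 glycolysis enzymes 5 were higher and 3 lower, and of 28 enzymes of the citric acid cycle 9 were higher and 4 lower. *hk1.S*, a hexokinase that commits glucose to glycolysis, fell from 48.7 to 65.2 CPM in controls to 14.4 to 43.8 CPM in edited brains (log2 fold change -1.11 ± 0.21, edgeR adjusted p = 0.0012).

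The machinery that makes and processes RNA also rose in part. Of 111 spliceosome proteins, 81 were higher and 4 lower, with a median log2 fold change of 0.31. *srsf3.L*, a serine and arginine-rich splicing factor, was at 55, 60.0, 56, 51.6 and 61.7 CPM in controls and at 58.9, 85.1 and 91.2 CPM in edited brains, a rise of 1.41-fold in which 8 of 9 edited libraries were above every control (0.50 ± 0.09, edgeR adjusted p = 0.00118). The common core protein *snrpb.L* rose by 1.41-fold as well (0.50 ± 0.09, edgeR adjusted p = 0.00119). The 4 that fell were both homeologs of *sf3b1*, which recognises the branch point, and of *snrnp200*, the helicase that unwinds U4 from U6. *snrnp200.S* was at 123 to 134 CPM in controls and 91.6 to 119 CPM in edited brains (-0.32 ± 0.06, edgeR adjusted p = 0.00118). Among RNA polymerase II and III subunits, 17 of 31 were higher and 4 lower. The small subunit *polr2l.L* rose by 1.54-fold without overlap (0.62 ± 0.10, edgeR adjusted p = 0.00116).

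Protein handling was divided. Ubiquitin-conjugating enzymes were higher in 28 of 56 cases and lower in 6, and *ube2d3.L*, which passes ubiquitin to many ligases, was at 87.2, 88.6, 81.2, 101 and 87.6 CPM in controls and at 111, 145 and 172 CPM in edited brains (1.58-fold, log2 fold change 0.66 ± 0.11, edgeR adjusted p = 0.00116). Proteasome subunits, which degrade the tagged proteins, were called higher in 10 of 66 cases and lower in 4. *psmd2.L*, a scaffold of the regulatory particle, fell by 1.24-fold (-0.30 ± 0.08, edgeR adjusted p = 0.00611). *psmc5.S*, an ATPase of the same particle and the list member of smallest p, rose by 1.22-fold (0.28 ± 0.07, edgeR adjusted p = 0.00307). With the span trend removed, 3 proteasome genes were higher and 13 lower, and the median turned from 0.09 to -0.03. Genes of translocation into the endoplasmic reticulum and of glycosylation were higher in 29 of 54 cases and lower in 3, among them *dad1.L* of the oligosaccharyl transferase (0.47 ± 0.08, edgeR adjusted p = 0.00116). Without the span trend, 16 of the 54 were higher and 6 lower, with a median of 0.07 in place of 0.19. Autophagy and lysosome genes were higher in 33 of 83 cases and lower in 13. *gabarap.L*, which is conjugated to autophagosome membranes, rose by 1.48-fold (0.57 ± 0.10, edgeR adjusted p = 0.00119), and *lamtor1.S*, an anchor of the mTORC1 platform on lysosomes, by 1.34-fold (0.42 ± 0.07, edgeR adjusted p = 0.00116). Of the adaptor complexes and clathrin, the family to which the *ap3b2* product belongs, 15 of 50 genes were higher and 14 lower, with a median of -0.04, which took the opposite sign in 2 of 27 alternatives. Chaperones were higher in 29 of 105 cases (27.6%) and lower in 18 (17.1%), and in 29 and 26 without the span trend. All genes tested had 26.3% higher and 25.1% lower. The adaptor and clathrin counts (30% and 28%) and the chaperone rises were near these shares.

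**Figure D3:**
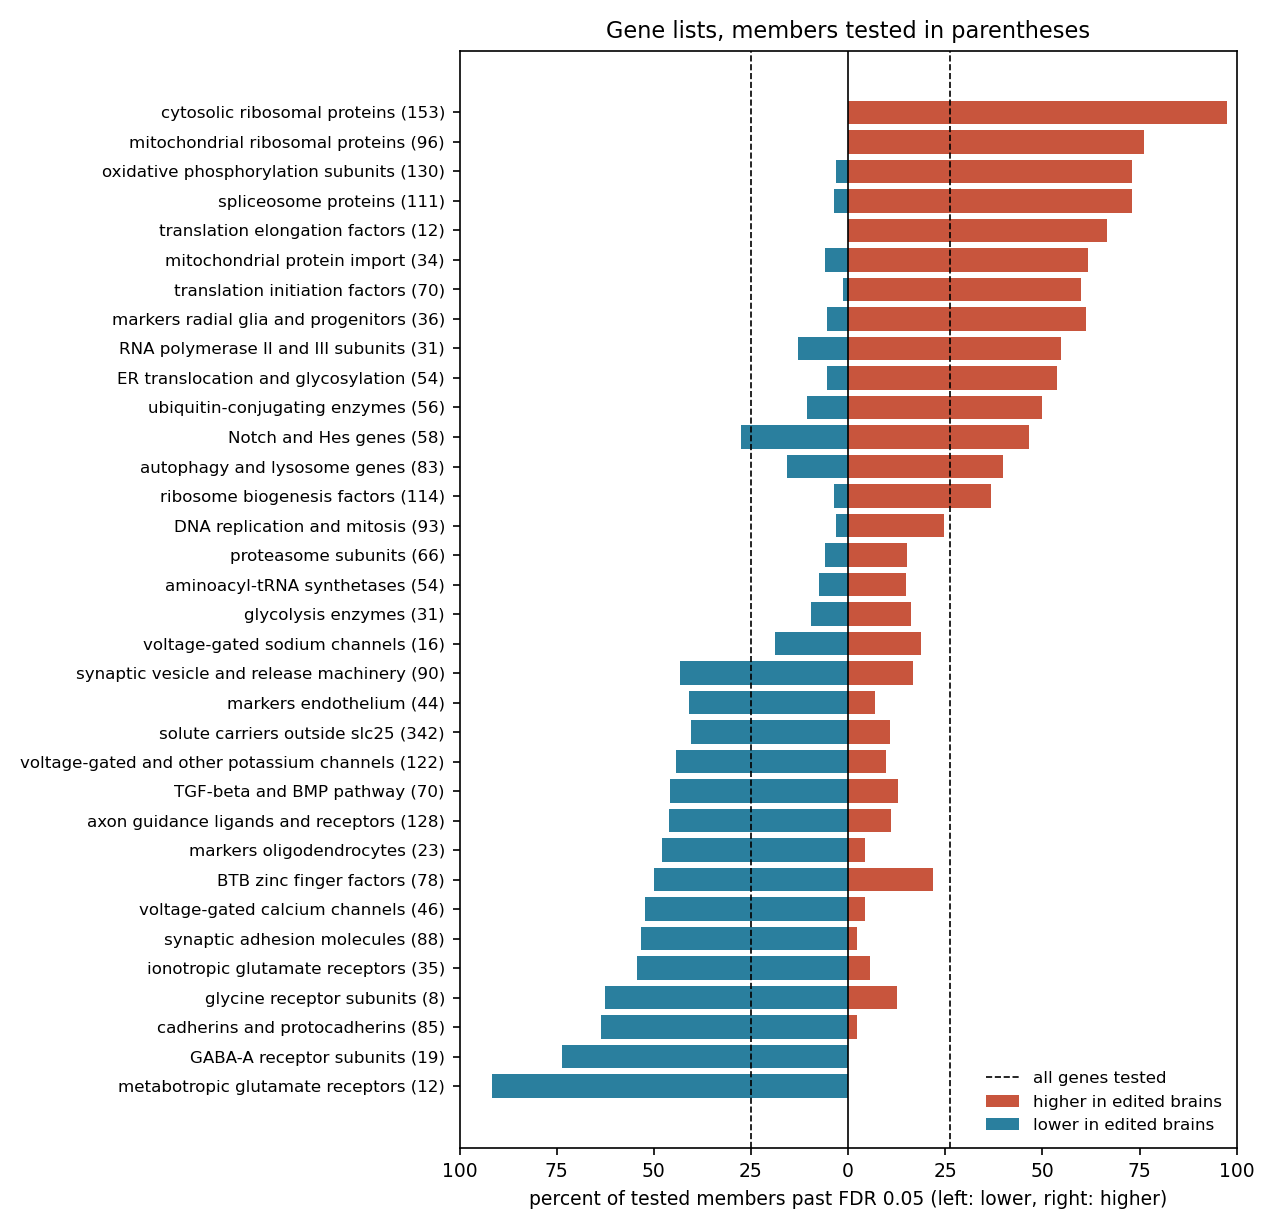
Percent of the tested members of each gene list that were higher (right) or lower (left) in edited brains at a false discovery rate below 0.05, for 34 lists; dashed lines give the share of all genes tested, 26.3% higher and 25.1% lower. Ribosomal protein, respiratory chain and spliceosome lists extend farthest to the higher side, and metabotropic glutamate and GABA-A receptors farthest to the lower side.

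The rises below 2-fold of smallest p-value, among genes without overlap, had varied roles. *acvr2a.L*, a type II receptor for activins, was at 54.5, 51.9, 53, 50.1 and 51 CPM in controls and at 63.8, 89.3 and 107 CPM in edited brains (1.67-fold, log2 fold change 0.74 ± 0.10, edgeR adjusted p = 0.00116). *atp1b2.L*, a beta subunit of the sodium pump, rose from 1.83 to 2.29 CPM to 2.96 to 4.72 CPM, or 1.88-fold. *lage3.L* of the KEOPS complex, which modifies transfer RNA, rose by 1.59-fold. *eaf2.S*, a partner of ELL elongation factors, rose by 1.45-fold, *anapc15.L* of the anaphase-promoting complex by 1.46-fold, *rasl10a.L*, a small GTPase, by 1.33-fold and *nol4l.S* by 1.25-fold. In all of these, every edited library was above every control, as the rule that named them required. *c2h11orf87.L* met the same rule.

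Genes of neural progenitors were also among the rises. Of 36 markers of radial glia and progenitors tested, 22 were higher and 2 lower, with a median log2 fold change of 0.27, and the median over the list ran from -0.07 to 0.07 in control libraries and from 0.14 to 0.44 in edited libraries. Their summed level, 3184 to 3774 CPM in controls and 3303 to 3712 CPM in edited brains, overlapped. *fabp7.L*, a fatty acid binding protein of radial glia, was at 394, 399, 374, 460.1 and 420.2 CPM in controls and at 469, 527 and 644 CPM in edited brains (1.34-fold, 0.42 ± 0.08, edgeR adjusted p = 0.00135). Of these markers, 14 were higher and 4 lower, with a median of 0.13, once the trend of fold change with gene span was removed. The list of Notch pathway and Hes genes was divided. It shares *hes5* genes, *hes5.S* and *hes5.3.L* among them, with the progenitor markers, so that the counts of these lists are not independent. Of its 29 Hes genes, 24 were higher and none lower, and of its other 29 genes, 3 were higher and 16 lower. The median of the whole list, 0.22, was 0.07 with the span trend removed, with 18 higher and 14 lower. *hes5.S*, a target of Notch that holds progenitors undifferentiated, rose from 33.9 to 39.9 CPM to 44.9 to 56.8 CPM (0.38 ± 0.06, edgeR adjusted p = 0.00116), and *hes5.3.L* rose by 1.37-fold. *maml1.S*, a coactivator of Notch, was at 8.74, 8.6, 7.54, 5.73 and 8.48 CPM in controls and at 0.898, 2.22 and 5.12 CPM in edited brains, a fall of 3.16-fold without overlap (-1.66 ± 0.26, edgeR adjusted p = 0.00116). It was the member of smallest p in this list. Of 93 genes of DNA replication and mitosis, 23 were higher and 3 lower, a share close to the background for rises and under it for falls. 

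Only 4 genes rose by more than 2-fold without overlap. *hic2.S* (chromosome 1S, 142530756 to 142563901), a BTB zinc finger repressor, was at 12, 11.9, 12.3, 12.8 and 11.2 CPM in controls and at 16.2, 30.1 and 39.7 CPM in edited brains, a rise of 2.38-fold (log2 fold change 1.25 ± 0.17, edgeR adjusted p = 0.00116). Its homeolog *hic2.L* rose by 1.45-fold, also without overlap (0.53 ± 0.09, edgeR adjusted p = 0.00117). *cfi.L*, complement factor I, was at 1.77, 1.51, 1.79, 2.63 and 3.45 CPM in controls and at 3.63, 4.99 and 8.49 CPM in edited brains (1.25 ± 0.23, edgeR adjusted p = 0.00124). The highest control, replicate 5, lay close to the lowest edited library. *amy2a.L*, a pancreatic amylase, rose from 1.10 to 1.62 CPM to 1.67 to 4.00 CPM (1.13 ± 0.20, edgeR adjusted p = 0.00118). *ikbke.S*, a kinase of innate immune signalling, was at 10.2, 9.15, 8.11, 9.73 and 10.4 CPM in controls and at 12.7, 20.7 and 25.7 CPM in edited brains (1.05 ± 0.15, edgeR adjusted p = 0.00116).

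In the other rises beyond 2-fold the groups overlapped, and those given here were chosen after their values were seen. Of all 25 rises beyond 2-fold, 21 kept their call when each of the 14 libraries was left out in turn. *krt62.S*, a keratin, was at 0.168, 0.195, 0.208, 0.379 and 0.928 CPM in controls and at 0.178, 1.08 and 5.62 CPM in edited brains (log2 fold change 2.31 ± 0.75, edgeR adjusted p = 0.0177). No control exceeded 1 CPM, the level that testing required in at least 4 libraries. *krt62.S* was thus tested through edited libraries alone, the group where it is high. *krt12.5.L* and *krt12.5.S* had log2 fold changes of 1.62 ± 0.49 and 1.69 ± 0.52, with 7 and 5 edited libraries above all controls. *atp12a.L*, a proton pump of epithelia, had 2 edited libraries below and 4 above the control range (2.06 ± 0.83, edgeR adjusted p = 0.0482). *cps1.S*, the first enzyme of the urea cycle, was above all controls in 7 edited libraries and below them in 1 (1.43 ± 0.34, edgeR adjusted p = 0.00348). *fosb.L*, an immediate early transcription factor, ranged from 0.779 to 2.27 CPM in controls and from 1.68 to 7.01 CPM in edited brains (1.33 ± 0.37, edgeR adjusted p = 0.00799). *card9.L*, an adaptor of innate immunity, ranged from 7.46 to 15.1 CPM and from 9.37 to 37.4 CPM (1.10 ± 0.29, edgeR adjusted p = 0.00579). The 25 genes had a median control level of 1.31 CPM, compared with 17.8 CPM over all genes tested.

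The largest falls were in regulators and receptors. *clmn.S*, a membrane protein with calponin homology domains, was at 1.66, 1.24, 1.73, 0.843 and 2.18 CPM in controls and at 0.077, 0.267 and 0.667 CPM (lowest, median and highest) in edited brains, a fall of 4.56-fold (log2 fold change -2.19 ± 0.33, edgeR adjusted p = 0.00116). Testing required more than 1 CPM in at least 4 libraries, which no edited library reached. *clmn.S* was thus tested through its control libraries alone, the group where it is high. *bach2.L* (chromosome 5L, 88683909 to 88871522), a repressor of the bZIP family, was at 11.8, 11.8, 10.9, 6.41 and 11.5 CPM in controls and at 0.385, 2.03 and 6.00 CPM in edited brains, a fall of 4.34-fold (-2.12 ± 0.39, edgeR adjusted p = 0.00119). Control replicate 4 was the lowest control and lay just above the highest edited library. *insr.S*, the insulin receptor, was at 8.17, 8.21, 6.32, 3.65 and 7.32 CPM in controls and at 0.334, 1.65 and 3.17 CPM in edited brains, a fall of 4.08-fold (-2.03 ± 0.36, edgeR adjusted p = 0.00117). The groups were apart for each of these genes, and the edited libraries spread over a several-fold range.

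*kdrl.L*, a receptor for vascular endothelial growth factor, was at 9.22, 10.8, 8.85, 8.03 and 11.7 CPM in controls and at 0.821, 1.90 and 6.62 CPM in edited brains (log2 fold change -1.95 ± 0.35, edgeR adjusted p = 0.00119). *tgfbr3.S*, the TGF-beta co-receptor betaglycan, fell from 3.58 to 6.38 CPM to 0.231 to 3.23 CPM (-1.95 ± 0.39, edgeR adjusted p = 0.00146). *jcad.S*, a protein of endothelial cell junctions, fell from 5.10 to 9.15 CPM to 0.765 to 4.31 CPM (-1.93 ± 0.33, edgeR adjusted p = 0.00117). Signalling proteins and nuclear factors made up the rest of the leading falls. *zbtb20.S*, a BTB zinc finger repressor, fell from 1.66 to 3.43 CPM to 0.18 to 1.43 CPM (-1.93 ± 0.34, edgeR adjusted p = 0.00117). The kinase gene *nrk.L* fell from 2.08 to 3.19 CPM to 0.102 to 1.29 CPM (-1.94 ± 0.36, edgeR adjusted p = 0.00124). *nr5a1.L*, the nuclear receptor SF-1, fell from 0.758 to 1.116 CPM to 0.0239 to 0.667 CPM (-1.95 ± 0.49, edgeR adjusted p = 0.00426). Like *clmn.S*, it was tested through control libraries alone.

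**Figure D4:**
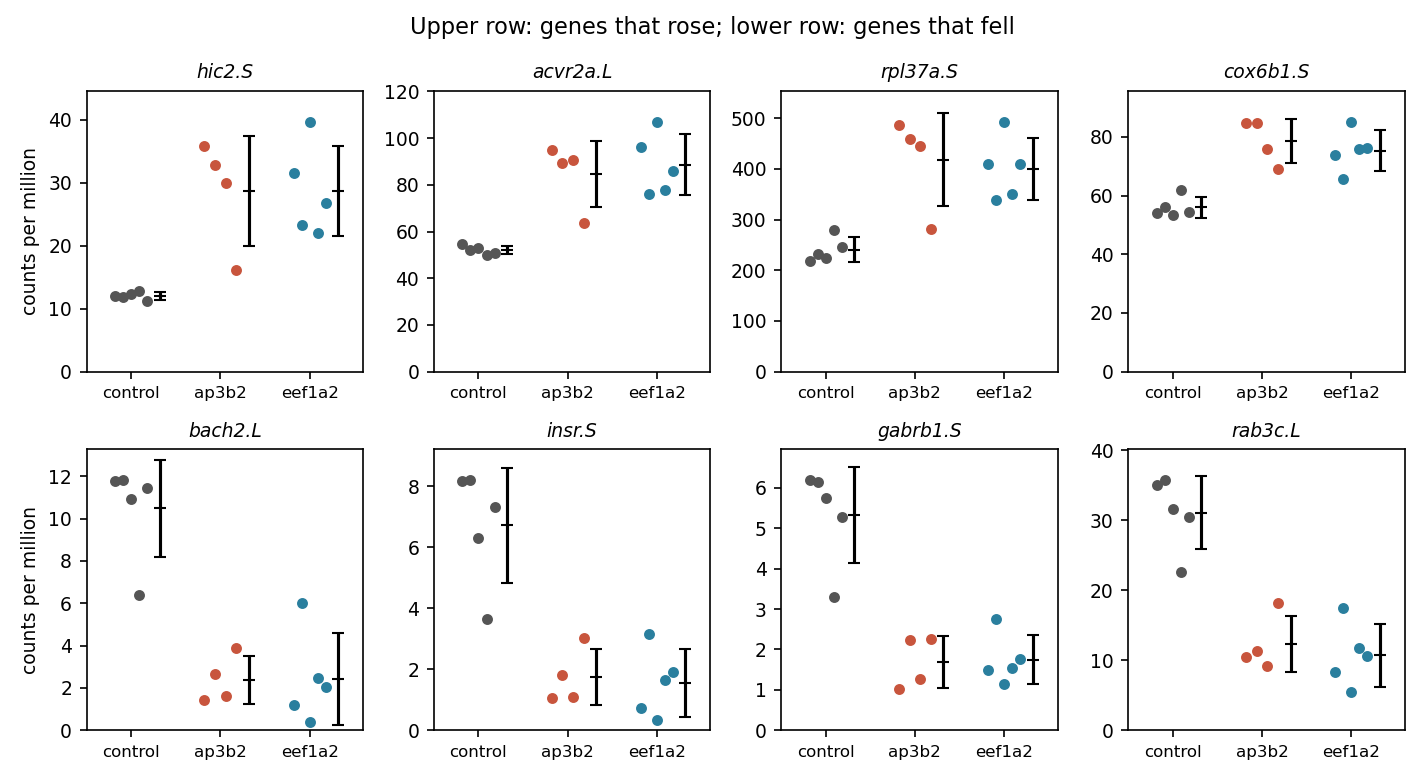
CPM in each library for 4 genes that rose (upper row) and 4 that fell (lower row), by group; each point is 1 library and bars give the mean ± SD of its group. In *hic2.S* the edited libraries lie at 16.2 to 39.7 CPM against 11.2 to 12.8 CPM in controls, and in *insr.S* at 0.334 to 3.17 CPM against 3.65 to 8.21 CPM.

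GABA-A and metabotropic glutamate receptors were the lists with the largest share of falls among the receptor and channel lists. Of 19 GABA-A receptor subunit genes tested, which form the chloride channels of fast inhibition, 14 were lower and none higher, 9 fell by more than 2-fold and the median log2 fold change was -0.92. Their median ratio ran from -0.30 to 0.15 in control libraries and from -1.58 to -0.39 in edited libraries. *gabrb1.S* was at 6.19, 6.14, 5.76, 3.31 and 5.29 CPM in controls and at 1.02, 1.54 and 2.76 CPM in edited brains, a fall of 3.09-fold (-1.63 ± 0.22, edgeR adjusted p = 0.00116). *gabra2.L* was at 36.4, 40.1, 39.7, 25.8 and 38.1 CPM in controls and at 5.16, 10.5 and 22.3 CPM in edited brains, a fall of 2.88-fold (-1.53 ± 0.26, edgeR adjusted p = 0.00116). In both genes no edited library reached the lowest control. Of 12 metabotropic glutamate receptors, which act through G proteins, 11 were lower, 5 of them by more than 2-fold, and none higher, with a median of -0.89. *grm5.L* was at 49.7, 51.1, 50.0, 30 and 41.6 CPM in controls and at 4.46, 11.5 and 27.2 CPM in edited brains, a fall of 3.01-fold (-1.59 ± 0.30, edgeR adjusted p = 0.00131).

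Other receptors and channels had smaller shares of falls. Of 35 ionotropic glutamate receptor genes, 19 were lower, 3 of them by more than 2-fold, and 2 higher, with a median log2 fold change of -0.28 that was -0.02 once the span trend was removed. *grin2b.L*, an NMDA receptor subunit, was at 26.3, 26.3, 23.2, 14.4 and 21 CPM in controls and at 3.95, 7.08 and 15.1 CPM in edited brains (-1.48 ± 0.25, edgeR adjusted p = 0.00117), with 1 edited library inside the control range. Of 8 glycine receptor genes, 5 were lower and 1 higher, and 3 were lower and 2 higher with the span trend removed. *glra1.L* fell by 2.06-fold and *glra2.S* rose by 1.28-fold (log2 fold changes -1.04 ± 0.20 and 0.36 ± 0.08). Potassium channels, which set the resting potential and end the action potential, were lower in 54 of 122 cases, 18 of them by more than 2-fold, and higher in 12. *kcnd2.L*, an A-type channel, was at 5.33, 5.45, 5.61, 4.21 and 6.13 CPM in controls and at 1.13, 2.15 and 3.64 CPM in edited brains (-1.23 ± 0.22, edgeR adjusted p = 0.00117). Calcium channels were lower in 24 of 46 cases and higher in 2, and the auxiliary subunit *cacnb4.S* fell by 2.52-fold (-1.33 ± 0.21, edgeR adjusted p = 0.00116). With the span trend removed, 17 calcium channel genes were lower and 12 higher, and the median was -0.12 in place of -0.27. Sodium channels held 3 higher and 3 lower of 16.

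Transport across membranes was lower in part. Of 342 solute carriers outside the mitochondrial family, 138 were lower, 42 of them by more than 2-fold, and 37 higher, with a median log2 fold change of -0.20. *slc6a9.S*, the glycine transporter GlyT1, was at 6.61, 7.45, 7.42, 5.18 and 7.56 CPM in controls and at 0.924, 2.29 and 3.50 CPM in edited brains (-1.56 ± 0.23, edgeR adjusted p = 0.00116). *slc45a4.L* fell by 2.48-fold and the zinc transporter *slc39a10.L* by 1.98-fold (-1.31 ± 0.18 and -0.98 ± 0.15), both without overlap. Of 58 mitochondrial carriers, 19 were higher (32.8%) and 15 lower (25.9%), and 15 and 14 with the span trend removed. Among all genes tested, 26.3% were higher and 25.1% lower, so that the carriers were near the background. The mitochondrial glutamate carrier *slc25a22* fell in both homeologs, *slc25a22.L* by 2.40-fold and *slc25a22.S* by 2.26-fold (-1.27 ± 0.26 and -1.18 ± 0.24). ABC transporters were lower in 18 of 50 cases and higher in 6.

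Cell surface proteins that guide and join neurites fell in number. Of 128 axon guidance genes, 59 were lower, 16 by more than 2-fold, and 14 higher, with a median log2 fold change of -0.16 that turned to 0.03 with the span trend removed. *unc5d.S*, a netrin receptor, fell from 23.3 to 35.2 CPM in controls to 9.19 to 23.3 CPM in edited brains (-1.09 ± 0.17, edgeR adjusted p = 0.00116), and the ephrin receptor *epha6.S* fell by 2.29-fold (-1.19 ± 0.20, edgeR adjusted p = 0.00116). Cadherins and protocadherins, which join cells in a calcium-dependent way, were lower in 54 of 85 cases and higher in 2. *cdh13.S* was at 27, 26.1, 26.1, 17.1 and 22.1 CPM in controls and at 2.90, 7.75 and 15.4 CPM in edited brains (-1.49 ± 0.26, edgeR adjusted p = 0.00117). Synaptic adhesion molecules were lower in 47 of 88 cases and higher in 2, among them *cntnap5.L* of the neurexin superfamily (-1.60 ± 0.22, edgeR adjusted p = 0.00116), with 8 of 9 edited libraries below all controls. Collagens, laminins and integrins were lower in 38 of 104 cases and higher in 9, and their median, -0.09, was 0.004 with the span trend removed. Genes of vesicle release were lower in 39 of 90 cases, 19 of them by more than 2-fold, and higher in 15. *rab3c.L*, a GTPase of synaptic vesicles, was at 35.0, 35.7, 31.6, 22.6 and 30.4 CPM in controls and at 5.49, 10.6 and 18.1 CPM in edited brains (-1.45 ± 0.21, edgeR adjusted p = 0.00116). Kinesins and cytoplasmic dynein, a separate list, were lower in 28 of 86 cases and higher in 12. Their median, -0.05, was 0.009 with the span trend removed. The member of smallest p, *dctn3.S*, rose (log2 fold change 0.48, edgeR adjusted p = 0.00116). *kif1a.S* of this list, the motor that carries synaptic vesicle precursors, fell by 2.44-fold (-1.29 ± 0.21, edgeR adjusted p = 0.00116).

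Signalling and transcription lists moved in both directions. Of 70 TGF-beta and BMP genes, 32 were lower, 13 by more than 2-fold, and 9 higher. *tgfbr2.S*, the type II TGF-beta receptor, was at 2.40, 2.65, 2.85, 2.49 and 3.13 CPM in controls and at 0.506, 0.853 and 1.78 CPM in edited brains (log2 fold change -1.61 ± 0.23, edgeR adjusted p = 0.00116). *skil.S*, a repressor of SMAD signalling, fell by 3.40-fold (-1.76 ± 0.32, edgeR adjusted p = 0.00119), and *acvr2a.L* of the same list rose. BTB zinc finger factors were lower in 39 of 78 cases and higher in 17, and this list holds both *zbtb20.S* and *hic2.S*. Wnt ligands and receptors were lower in 23 of 77 cases (29.9%), near the 25.1% of all genes tested. They were higher in 11 (14.3%), under the 26.3% of all genes, and their median log2 fold change was -0.04. *fzd5.L* of this list was at 2.97 to 6.04 CPM in controls and 1.05 to 2.43 CPM in edited brains (-1.54 ± 0.19, edgeR adjusted p = 0.00116). Immediate early genes, which neuronal activity induces, held 9 higher (25%) and 11 lower (30.6%) of 36. These shares were near those of all genes tested, 26.3% and 25.1%. *npas4.L* fell from 21.4 to 55.9 CPM to 13.6 to 23.4 CPM (-1.06 ± 0.18, edgeR adjusted p = 0.00116), whereas *jun.L* rose from 12.51 to 16.4 CPM to 16.7 to 22.3 CPM (0.47 ± 0.09, edgeR adjusted p = 0.00119).

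Markers of the cell types a brain library can hold were read beside these groups. Neuronal markers were higher in 9 of 36 cases (25%) and lower in 11 (30.6%), near the 26.3% and 25.1% of all genes tested. Their median log2 fold change was 0.03, and their summed level was 11712 to 12334 CPM in controls and 11951 to 12635 CPM in edited brains. The 4 neuronal markers of smallest p went in both directions. *slc17a7.L*, the vesicular glutamate transporter VGLUT1, fell from 185 to 203 CPM to 69.4 to 158 CPM (-0.80 ± 0.15, edgeR adjusted p = 0.00136). *dcx.S* fell as well (log2 fold change -1.35, edgeR adjusted p = 0.00173). *stmn2.S* and *stmn2.L* rose (0.26 and 0.30, edgeR adjusted p = 0.00157 and 0.00174). Oligodendrocyte markers were lower in 11 of 23 cases, 6 by more than 2-fold, and higher in 1, and their summed level was 569.7 to 894 CPM in controls and 464.7 to 706.4 CPM in edited brains. *mag.S*, a myelin adhesion protein, was at 9.54, 12.2, 12.3, 15.7 and 16.3 CPM in controls and at 1.63, 4.32 and 7.42 CPM in edited brains (-1.62 ± 0.26, edgeR adjusted p = 0.00116). Endothelial markers were lower in 18 of 44 cases, 11 by more than 2-fold, and higher in 3, with a summed level of 981.2 to 1066 CPM and 881.8 to 1014 CPM. *kdrl.L* fell, *lmo2.L*, a transcription cofactor of blood and vessel cells, rose by 1.49-fold (0.57 ± 0.09, edgeR adjusted p = 0.00116), and *pecam1.L*, a surface marker of endothelium, had 0.02 ± 0.11 (edgeR adjusted p = 0.879). *pecam1.L* was chosen after its values were seen. No defining marker of these 3 lists was at 0 in every library. Microglia and leukocyte markers were higher in 2 of 19 cases and lower in 3, with 61.6 to 70.8 CPM in controls and 67.2 to 83.5 CPM in edited brains.

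Cell types from outside the brain were also looked for, since adhering tissue can enter a dissection. Against 26.3% higher and 25.1% lower among all genes tested, no list of these cell types exceeded either share. Calls were rarer in weakly expressed genes, with 13.0% higher and 15.6% lower in the lowest of 10 classes of control level. Epidermal markers were higher in 6 of 30 cases, 3 of them the keratins *krt62.S*, *krt12.5.L* and *krt12.5.S*, and lower in 4, with a summed level of 564.2 to 684.3 CPM in controls and 559.8 to 708.3 CPM in edited brains and 9 of 109 listed genes at 0 in every library. Liver and pancreas markers were higher in 3 of 12 cases, *amy2a.L* and *cps1.S* among them, and lower in 2, with 122.2 to 168.5 CPM against 105.2 to 164.6 CPM and 7 of 58 genes at 0. Their median log2 fold change was 0.33, with 10 above 0 and 2 below. Skeletal muscle markers were higher in 4 of 28 cases and lower in 3 (574.2 to 630.5 CPM against 580.1 to 640.7 CPM). Their median was also 0.33, with 22 above 0 and 6 below. Erythroid markers were higher in 3 of 19 cases and lower in 3, with 948.3 to 1215 CPM against 829.3 to 1779 CPM. Lens and retina markers were higher in 3 of 18 cases and lower in 1, cartilage markers higher in 2 of 21 and lower in 3, and pigment cell markers lower in 1 of 7. The median was 0.17 for lens and retina, 0.02 for epidermal, -0.01 for pigment cell, -0.04 for cartilage and -0.08 for erythroid markers. The part of tissue from outside the brain in the rises of *amy2a.L*, *cps1.S* and the keratins was not tested.

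The edited groups were then read separately, each against the same 5 controls, so that their estimates are not independent. The *ap3b2* CRISPants had 4230 genes higher (19.8%) and 4237 lower (19.9%), and the *eef1a2* CRISPants had 4270 higher (20%) and 4450 lower (20.9%). For the small rises of the pooled comparison, the median log2 fold change was 0.32 in *ap3b2* and 0.31 in *eef1a2* CRISPants. For the falls it was -0.64 in both, and for the falls beyond 2-fold -1.21 and -1.25. These genes were chosen by a contrast that pools both groups, which favours similar medians, so that the likeness is a description. *insr.S* had -1.94 and -2.10, *hic2.S* 1.25 and 1.25, *rpl37a.S* 0.80 and 0.74 and *gabra2.L* -1.43 and -1.60, in that order. The largest gaps among the leading falls were in *nr5a1.L*, with -1.52 and -2.40, and in *zbtb20.S*, with -2.31 and -1.69. Tested directly against each other in edgeR, the edited groups had no gene past the threshold (0%), with 233 genes at an unadjusted p under 0.05, where 5% of the genes tested is 1066. The median absolute log2 difference between them was 0.06 over all genes tested. This test does not show that the groups were alike.

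Direction of change varied with the length of the gene. Span, the distance from the first to the last base of a gene with its introns in the RefSeq table of assembly v10.1, was 13938 bases in the median of higher genes, 43600 bases in lower genes and 24002 bases in all genes tested with a span. Among the 10 classes of rising span, the share of genes called higher fell from 48.9% in the shortest, with a median of 4152 bases, to 6.31% in the longest, with a median of 151186 bases. The share called lower went from 10.04% to 48.3%, and the share that fell beyond 2-fold from 2.05% to 12.46%. In single libraries, the slope of the log2 ratio per 10-fold of span ran from -0.20 to 0.08 in controls and from -0.51 to -0.10 in edited brains, and control replicate 4 was the lowest control. All 9 edited libraries had a slope below 0, and 4 of the 5 controls a slope above 0. The ratios are to the control mean, so that the control slopes average 0 by construction and their signs are a description. With the trend removed in the fit, 5360 genes were higher and 5190 lower. Of the original calls, 4010 higher and 4622 lower genes were kept, and 943 genes fell beyond 2-fold.

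**Figure D5:**
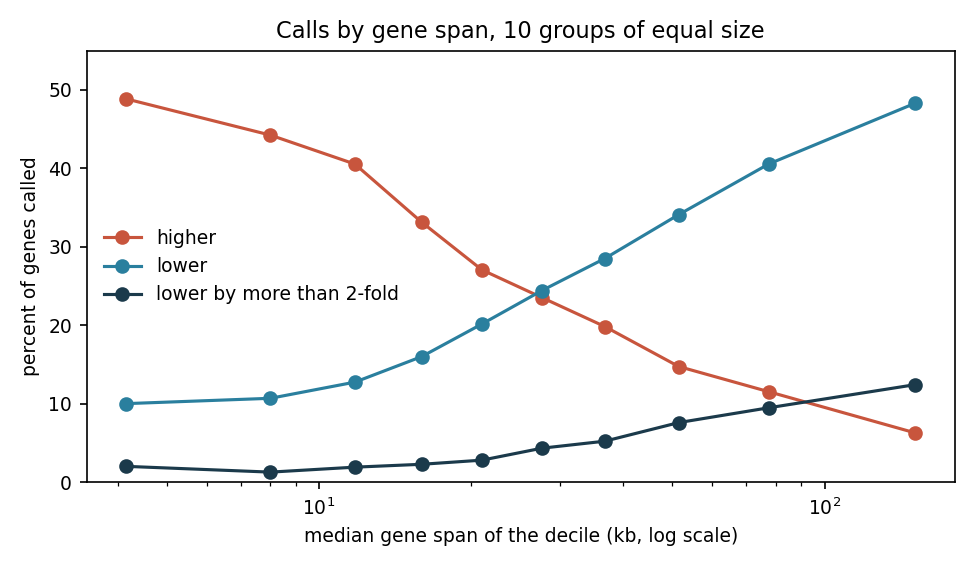
Percent of genes called higher, called lower and lower by more than 2-fold (y axis) in 10 classes of gene span, against the median span of the class in kilobases on a log axis. The share called higher goes from 48.9% in the shortest class to 6.31% in the longest, and the share called lower from 10.04% to 48.3%.

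Removing that trend moved the medians of the gene groups by different amounts. The median log2 fold change was 0.41 in place of 0.59 for cytosolic ribosomal proteins, 0.18 in place of 0.33 for mitochondrial ribosomal proteins, 0.15 in place of 0.32 for the respiratory chain and 0.17 in place of 0.31 for spliceosome proteins. It was -0.79 in place of -0.92 for GABA-A receptors, -0.89 in both for metabotropic glutamate receptors, -0.18 in place of -0.20 for solute carriers and -0.35 in place of -0.24 for BTB zinc finger factors. Counts of rises fell to 45 of 96 in mitochondrial ribosomal proteins, 63 of 130 in the respiratory chain, 31 of 70 in initiation factors and 55 in spliceosome proteins. RNA polymerase II and III subunits held 11 higher and 3 lower of 31, and cadherins and protocadherins 13 higher and 42 lower. Axon guidance genes then held 39 higher and 42 lower, genes of vesicle release 22 and 39, collagens, laminins and integrins 21 and 29, and autophagy and lysosome genes 25 and 14. Calls also varied with expression level. In 10 classes of rising control level, the share called higher went from 13.0% in the lowest to 37.2% in the highest. The share called lower was 15.6% and 15.9% at these ends and up to 31.6% between them. Falls beyond 2-fold made up 5.91% of the lowest class, up to 8.91% between, and 1.03% of the highest. In its medians, expression level differed less than span did. The median control level was 24.8 CPM in higher genes, 16.2 CPM in lower genes and 17.8 CPM in all genes tested. L copies made up 58.1% of the higher genes, 54.6% of the lower genes and 57.0% of all genes tested.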

How the data were processed

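RNA was sequenced from 14 libraries of 6 pooled stage 47 brains each (5 control, 4 *ap3b2* and 5 *eef1a2* CRISPant) as stranded paired reads of 100 bases. The authors mapped the reads to assembly v10.1 with STAR, assigned each pair to a gene with reverse-stranded featureCounts, and deposited the whole-number counts. They also deposited log2 CPM values made from those counts with edgeR, after which 21328 of 26807 genes remained, and recomputing them with a prior count of 2 gave the same values to within 4.99e-09. The versions of STAR, featureCounts and edgeR are not given in the sources used here. The series text gives 5 replicates per condition, and 4 *ap3b2* libraries were analysed here.

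Counts were tested with the quasi-likelihood F test of edgeR 4.0.16 in R 4.3.3 (TMM scaling, CPM above 1 in at least 4 libraries, 1 term for edited against control, Benjamini-Hochberg adjustment over all genes tested). CPM values given per library are relative to TMM-scaled library sizes. A gene was called at a false discovery rate below 0.05, and a fold change above 2 was a second threshold. Errors of log2 fold changes are approximate SE, calculated as the absolute log2 fold change over the square root of its F statistic in the same fit. DESeq2 1.42.0, other scalings and filters, a replicate block, removal of the trend with gene span and each library left out were the alternatives. The span trend was a smooth curve of log2 ratio on log10 span, fitted in each library and entered as an offset. Genes without a span were not adjusted. The code was checked on simulated data. With 36563581 counted pairs or more per library, 1 CPM of the library total, before TMM scaling, corresponded to 36.6 counts or more.

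Named genes were the 10 largest falls and up to 10 largest rises beyond 2-fold without overlap of the groups, the 10 rises below 2-fold without overlap of smallest p, up to 4 members of smallest p in each gene list, and the targets; exceptions are named as such. The comparison, the members and the gene lists were chosen with earlier results of these data known, and list members were matched by symbol. Of 26807 genes, 21587 matched the RefSeq table of assembly v10.1, and 23095 had a span, some through their homeolog. Gene and promoter sequences were not analysed here. A few genes that met this rule are not reported here.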

Additional observations from a re-analysis of the deposited data

Results flagged for a closer look

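In 16 of 256 groups of values, 1 library stood apart from the rest of its group by Dixon's criterion, where chance alone gives about 12.8. Control replicate 4 was that library in 10 of them, and in each case it lay on the side of the edited brains. It was the lowest control in *bach2.L* (6.41 CPM), *gabra2.L* (25.8 CPM), *slc45a4.L* (15.02 CPM), *slc25a22.S* (15.4 CPM) and *skil.S* (10.07 CPM), and the highest in *ndufa3.S* (19.2 CPM), *tomm7.L* (35.7 CPM) and *eif3k.S* (151 CPM). Its median log2 ratio over the genes that fell beyond 2-fold was -0.41, and its slope of log2 ratio per 10-fold of gene span was -0.20. Control replicate 5 stood apart as the lowest control in *timm10.L* (13.0 CPM) and as the highest in *pdgfra.S* (14.4 CPM), *krt62.S* (0.928 CPM) and *atp12a.L* (1.01 CPM). Control replicate 3 was the highest control in *glra1.L* (2.99 CPM). Among the edited libraries, *ap3b2* replicate 4 was the highest in *tgfbr2.S* (1.78 CPM).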

How the results depend on the processing

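The directions of the named genes held under nearly all alternatives. *ap3b2.S* was reversed with the span trend removed, at 0.1775, and at 0.1786 with the replicate block as well, and the cause was not tested. Fewer genes were called higher with library size alone (3618) and at a false discovery rate below 0.01 (3343). The 25 rises beyond 2-fold became 15 with the filter as the methods word it, 13 with library size alone, 134 without a filter and 76 in replicates 1 to 3 alone. The 1120 falls beyond 2-fold became 1734 in replicates 1 to 3 alone. A test of whether the fold change itself exceeds 2 (glmTreat) called 0 rises and 0 falls, with 444 genes at an unadjusted p under 0.05. In replicates 4 and 5 alone, with 3 edited libraries and 2 controls, all 4 counts were 0, and 106 named genes lost their call. *atp12a.L* lost its call under 15 alternatives.

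Without each library in turn, the genes higher ranged from 4164 to 5937, the genes lower from 4843 to 5823, the rises beyond 2-fold from 18 to 33 and the falls beyond 2-fold from 875 to 1426. The difference on the first principal component ranged from 165.7 to 181.2 without each library, and was 69.06 unscaled and 32.92 on 500 genes. The labels tie the groups by replicate number alone. Replicates 1 to 3 and replicates 4 and 5 nonetheless lay apart on the second principal component. Correlations of the deviations in the 13 same-numbered pairs ran from -0.22 to 0.63, and 10 were above 0.1. Pairs of unlike number ran from -0.73 to 0.69, and 5 of 14 libraries correlated best with their own number. A replicate block gave 6064 higher and 5709 lower genes. DESeq2 gave 5435 and 5781. The number of small rises depends on the scaling between libraries.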

Other observations

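Gene families outside the fixed lists, grouped by the stem of their symbols and chosen after their values were seen, held further members of both programmes. Of 46 *med* genes, subunits of the Mediator complex that links activators to RNA polymerase II, 23 were higher and 2 lower. Of 28 *gtf* genes, general transcription factors, 18 were higher and none lower. Of 24 *mettl* genes, a family of methyltransferases, 13 were higher and 1 lower, and of 20 *fkbp* genes, prolyl isomerases, 10 were higher and none lower. On the lower side, *klf* genes, zinc finger factors of the Krüppel-like family, had 13 of 26 lower and none higher, with a median log2 fold change of -0.44, and -0.58 with the span trend removed. Of 45 *klhl* genes, many of them adaptors of cullin ubiquitin ligases, 20 were lower and 2 higher. Of 23 *dennd* genes, exchange factors for Rab GTPases, 13 were lower and 2 higher. Of 20 *akap* genes, which anchor protein kinase A, 10 were lower and 2 higher. Of 22 *prdm* genes, 8 were lower and none higher. With the span trend removed, the median was 0.09 in place of 0.17 for *med* and 0.15 in place of 0.20 for *gtf* genes. It was 0.18 in place of 0.25 for *mettl* and 0.17 in place of 0.19 for *fkbp* genes. For *dennd* it was -0.33 in place of -0.39, and for *akap* -0.08 in place of -0.22. For *klhl* it was -0.28 in place of -0.21, and for *prdm* -0.17 in place of -0.12. All genes tested had 26.3% higher and 25.1% lower.

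Homeologs were compared where both copies were tested, in 7889 pairs. Both copies were called in 2904 pairs, in 1 direction in 2643 (91.0%) and in opposite directions in 261. The widest opposite pair was *gprin1*, with log2 fold changes of 0.44 for the L and -1.87 for the S copy. In *btbd7* they were 0.48 and -1.28, in *etv3* 0.34 and -1.31, in *rel* -1.06 and 0.31, and in the potassium channel gene *kcnc1* 0.28 and -0.99. Reads of similar copies can be divided between them, so that values of single copies are uncertain.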
